A study of Mus musculus with 6 samples.

Results

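Epithelial cells hold together through tight junctions, adherens junctions, desmosomes and gap junctions. The 47 mouse genes described here encode their claudins, cadherins, catenins, nectins, desmosomal proteins and connexins. They were taken by symbol from a fixed list, and all 47 were found among the 22001 symbols that stand alone on a row of the deposited table. RNA came from tumor epithelial cells of FVBN females of 7 weeks. The control mice carried PyMT, the polyoma middle T oncogene, and the others carried PyMT and lacked Elp3 through MMTV-Cre. The Elp3 protein is the enzyme of Elongator, a complex that modifies tRNA. The labels give 3 tumors of similar size per genotype, each from its own mouse. They do not name the promoter that drives PyMT or the cells in which Cre was active, and cells were selected with an epithelial enrichment kit.

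No comparison of the genotypes can be made. Same-numbered control and Elp3 cKO columns were equal in all 24308 rows, so the 6 columns are 3 distinct profiles, and neither label was assigned to any of them. They are called profiles 1, 2 and 3. Levels are FPKM, a fragment count divided by transcript length and library size, so genes can be set against each other. FPKM summed to between 621793 and 636842 per profile. Counts are not given, so the depth behind each value is unknown. Elp3 itself stood at 15.6, 17.9 and 19.0 FPKM in profiles 1, 2 and 3. The keratins Krt8 and Krt18, which mark simple epithelium, reached 3060 FPKM or more in every profile. Profile 3 stood apart by salivary secretory genes, with Smr3a at 0.615, 0.239 and 561 FPKM. Every value below is a description of 3 profiles, shown for each profile or by its median and range, and no test was made.

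Claudins are membrane-spanning proteins that seal or open the space between neighbouring cells, and the mix of claudins sets how tight and how ion-selective a tight junction is. Classical cadherins bind the same cadherin on the next cell and connect through catenins to actin. Desmosomal cadherins connect through plakoglobin, plakophilins and desmoplakin to keratin filaments. Connexins form channels that join the cytoplasm of neighbouring cells. In the mammary gland luminal cells carry E-cadherin, and the basal myoepithelial layer carries P-cadherin.

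Most junction genes were expressed, and many were abundant. A mean of 1 FPKM or more was reached by 40 of the 47 genes (85.1%), against 49.0% of all symbols. At 10 FPKM or more stood 32 genes, against 28.0% of all symbols, and at 100 FPKM or more stood 12 genes, against 3.47%. The median level of the 40 genes was 38.5 FPKM, and that of the 10770 symbols with a mean of 1 FPKM or more was 12.4. The list was picked as epithelial genes and the cells as epithelial cells, so these shares are given as a description. The 7 genes under 1 FPKM were Cldn2, Cldn15, Cdh2, Dsg1a, Dsc1, Dsc3 and Gjb1. In the order of medians, 35 of the 46 pairs of neighbours had ranges that overlapped. Among the leading genes the ranges separated Epcam from Cldn3 and Cldn3 from Cdh1, while those of Cldn4 and Epcam overlapped.

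**Figure D1:**
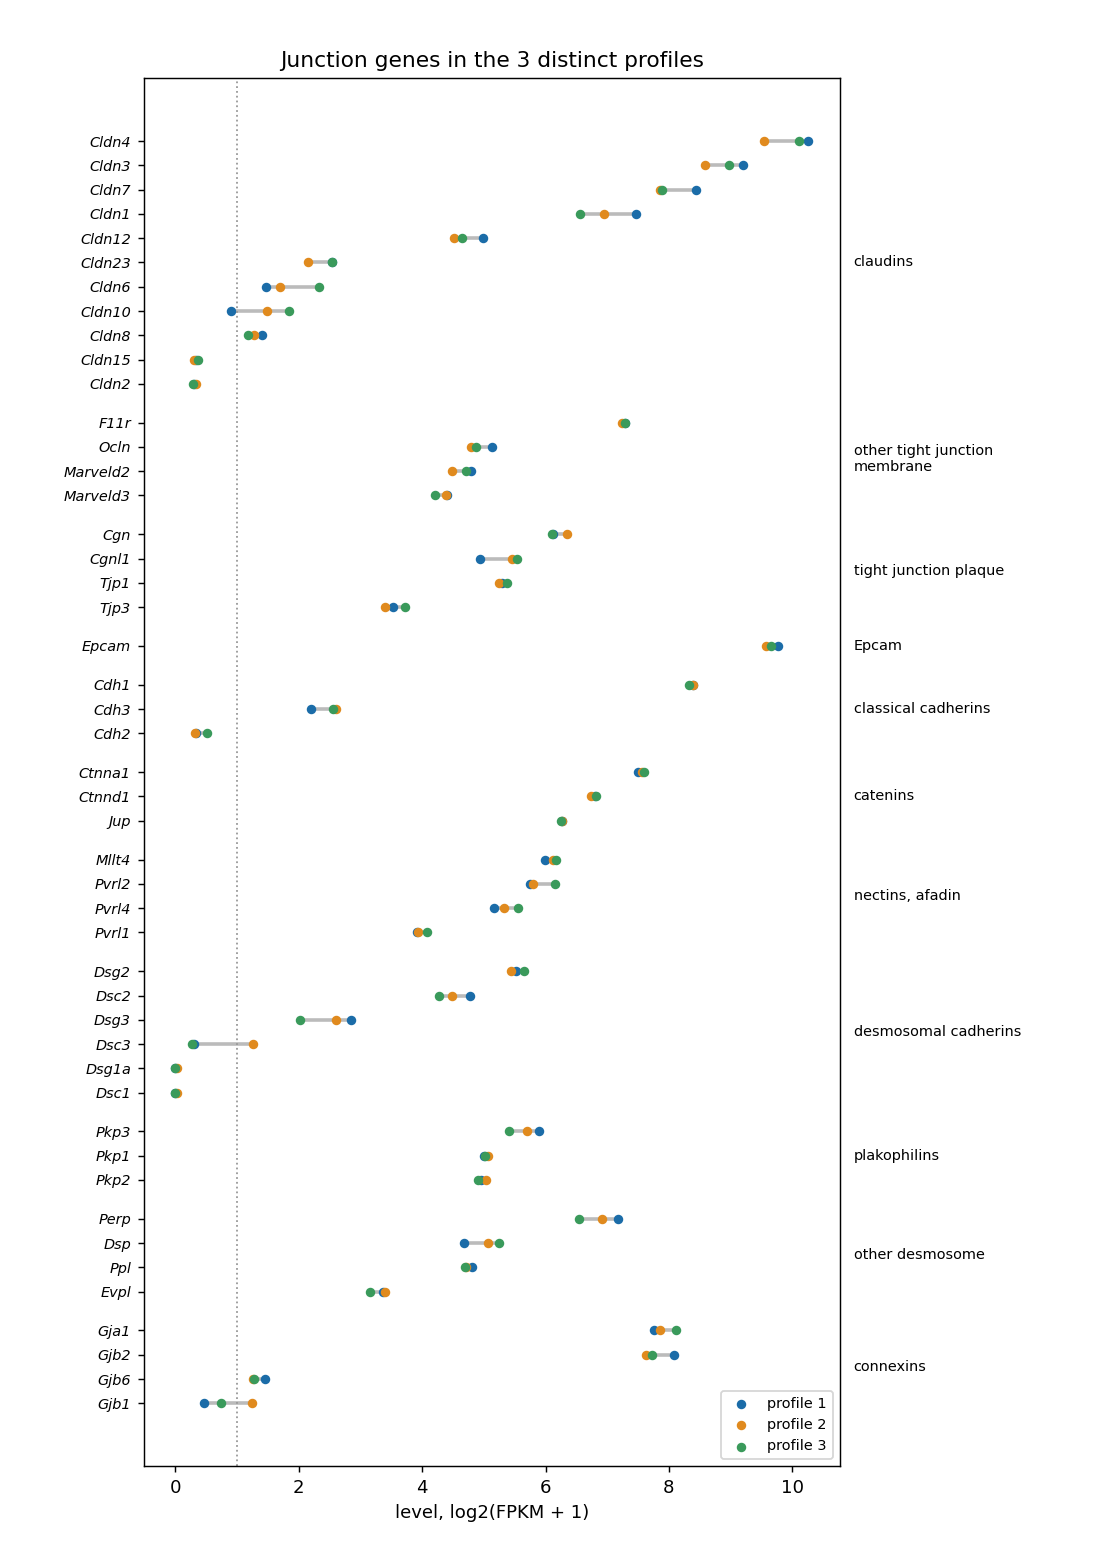
Level of each of the 47 junction genes on the log2(FPKM + 1) axis, with 1 point per profile and a grey line over the range, grouped by protein family. The dotted line marks 1 FPKM, and the genes range from Cldn4 at 744 to 1222 FPKM down to Dsg1a and Dsc1, which were listed at 0 in profiles 1 and 3.

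A small set of claudins made up nearly the whole family. Cldn4, a claudin of tight, sealing epithelia, had the highest mean and median of the 47 genes, at 1222, 744 and 1101 FPKM in profiles 1, 2 and 3. It was lowest in profile 2, where Epcam was above it, and its mean was rank 96 of all symbols. Cldn3, a sealing claudin widespread in epithelia, stood at 585, 383 and 504 FPKM, again lowest in profile 2. Cldn7, which also lies along the lateral membrane, stood at 345, 230 and 237 FPKM, with profile 1 above the others. Cldn1, needed for the water barrier of skin, stood at 175, 122 and 93.5 FPKM. Among the 26 symbols named Cldn and a number, Cldn4 held a median of 50.5% of summed FPKM (range 48.0 to 54.7) and Cldn3 24.7% (24.2 to 25.03). Cldn1, Cldn3, Cldn4 and Cldn7 together held 96.1% (95.4 to 96.1). The order Cldn4, Cldn3, Cldn7, Cldn1 was the same in each profile.

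The remaining claudins were far lower. Cldn12, which lacks the usual binding end for PDZ proteins, stood at 30.8, 21.8 and 24.0 FPKM. Cldn23 had a median of 4.82 FPKM (3.43 to 4.82), and Cldn8, a claudin of the distal kidney tubule, had 1.42 (1.26 to 1.64). Cldn6, best known from embryonic epithelium, stood at 1.78, 2.25 and 4.04 FPKM, highest in profile 3. The claudins known for forming ion channels were low. Cldn10 stood at 0.871, 1.80 and 2.57 FPKM, Cldn2, the cation channel of leaky epithelia, at 0.239, 0.258 and 0.221, and Cldn15 at 0.258, 0.240 and 0.294. Summed, these 3 genes held 0.149% of claudin FPKM (0.0565 to 0.153). Cldn6 and Cldn10 were both lowest in profile 1 and highest in profile 3, whereas the 5 most abundant claudins were highest in profile 1.

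Cldn4 and Cldn3 are neighbours on chromosome 5 of mm10. In GENCODE M21 each is a gene of 1 exon, Cldn4 on the minus strand at 134945119 to 134946934 and Cldn3 on the plus strand at 134986214 to 134987472, and 39.3 kb lie between them. The deposited rows give both the same locus, 134945121 to 135001350, shared with Wbscr25, and the division of fragments within it is not stated in the sources used. Wbscr25 overlaps 3.18% of the Cldn3 exon on the opposite strand. Cldn4 was 2.09 times as high as Cldn3 (1.94 to 2.19).

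The promoters of these leading genes are shown because Snail and Zeb repressors are known to bind the letters CACCTG, in either direction, in epithelial junction genes. Each sequence runs from 250 bases before to 50 after the RefSeq transcription start, is read 5′ to 3′ on the gene's strand (GRCm38.p6), and has every CACCTG or CAGGTG in capitals. Epcam, described with the tight junction, and the connexin neighbours Gjb2 and Gjb6 are printed with them.
Cldn4 (chr5:134946885-134947184, minus strand): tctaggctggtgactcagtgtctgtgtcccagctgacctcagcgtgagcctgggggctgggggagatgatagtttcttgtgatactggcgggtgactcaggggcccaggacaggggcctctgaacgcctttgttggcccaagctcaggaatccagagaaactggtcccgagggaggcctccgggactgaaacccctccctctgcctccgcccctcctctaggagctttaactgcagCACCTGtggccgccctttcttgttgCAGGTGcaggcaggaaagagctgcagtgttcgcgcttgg
Cldn3 (chr5:134985964-134986263, plus strand): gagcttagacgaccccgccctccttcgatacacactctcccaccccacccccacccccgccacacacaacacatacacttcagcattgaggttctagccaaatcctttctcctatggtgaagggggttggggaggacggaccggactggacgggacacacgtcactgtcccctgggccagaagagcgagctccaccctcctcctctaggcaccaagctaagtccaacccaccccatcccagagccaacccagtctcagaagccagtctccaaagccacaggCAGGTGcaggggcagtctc
Epcam (chr17:87635729-87636028, plus strand): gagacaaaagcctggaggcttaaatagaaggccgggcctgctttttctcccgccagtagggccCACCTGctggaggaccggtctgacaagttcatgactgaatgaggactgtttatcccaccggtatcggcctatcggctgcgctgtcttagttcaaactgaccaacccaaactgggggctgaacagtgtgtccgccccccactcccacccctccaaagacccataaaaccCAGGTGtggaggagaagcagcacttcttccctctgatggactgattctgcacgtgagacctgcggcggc
Gjb2 (chr14:57104653-57104952, minus strand): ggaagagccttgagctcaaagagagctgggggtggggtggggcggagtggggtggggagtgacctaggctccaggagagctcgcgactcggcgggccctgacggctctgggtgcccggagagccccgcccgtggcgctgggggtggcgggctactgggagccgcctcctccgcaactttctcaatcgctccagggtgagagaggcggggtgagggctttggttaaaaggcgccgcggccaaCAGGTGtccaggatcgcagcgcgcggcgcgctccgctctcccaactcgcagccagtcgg
Gjb6 (chr14:57133562-57133861, minus strand): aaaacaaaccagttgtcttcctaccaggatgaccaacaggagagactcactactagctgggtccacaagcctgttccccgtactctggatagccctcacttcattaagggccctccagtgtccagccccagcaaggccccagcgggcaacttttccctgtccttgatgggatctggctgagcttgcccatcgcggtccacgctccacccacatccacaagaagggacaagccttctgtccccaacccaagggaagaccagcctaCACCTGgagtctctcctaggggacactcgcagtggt

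The Cldn4 and Epcam promoters held 2 such matches each, and those of Cldn3, Gjb2 and Gjb6 held 1 each. Gjb6, at a median of 1.42 FPKM, and Gjb2, at 212, thus had the same number of matches, but not at the same place. The Gjb6 match began at base 265 of its window, after the transcription start, and the Gjb2 match at base 242, before it. The Cldn3 match, at base 282, and 1 of the 2 Cldn4 matches, at base 262, also lay after the start. RefSeq promoter windows were found for 27 of the 47 genes, 38 windows in all, some of which overlap. No classical cadherin, Cdh1 included, no desmosomal cadherin and no plakophilin had a window, so the shares below leave out these families. A CACCTG or CAGGTG was in 17 of these 38 windows (44.7%), against 20.2% of all 32851 windows and 18.2% of windows of symbols at 1 FPKM or more. Per gene, 14 of 27 had a match in some window (51.9%), against 21.2% of symbols at 1 FPKM or more. In all, 6 motifs were searched on both strands, with overlaps between motifs not excluded. GGGCGG, the GC box, was in 63.2% of the members' windows and 64.6% of windows of symbols at 1 FPKM or more. CCGGAA, a core of ETS sites, was in 26.3% and 27.6%, and TATAAA was in 13.2% and 6.82%. TGANTCA, which covers AP-1 sites, was in 10.5% and 5.33%, and AACCNGTT, close to the Grainyhead motif, in 5.26% and 1.80%. Those last 3 percentages rest on 5, 4 and 2 windows. Letters in a promoter are a description of the window and were not tested against expression. The members' windows had a median of 14.5 CG dinucleotides, against 21 in windows of symbols at 1 FPKM or more and 7 in all windows.

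The other membrane proteins of the tight junction varied less than the claudins. Ocln, occludin, stood at 34.0, 26.6 and 28.4 FPKM. Marveld2, tricellulin, which closes the corners where 3 cells meet, stood at 26.7, 21.5 and 25.1 FPKM, and Marveld3, their relative, at 20.1, 19.8 and 17.5. F11r, the junctional adhesion molecule JAM-A, stood at 156, 150.0 and 155 FPKM. All 4 genes were highest in profile 1. Of the scaffold proteins that connect these to actin, Tjp1, ZO-1, had 38.0 FPKM (36.9 to 40.4) and Tjp3, ZO-3, had 10.5 (9.54 to 12.2). Cgn, cingulin, had 68.8 FPKM (67.7 to 80.6). Its relative Cgnl1, paracingulin, stood at 29.6, 43.1 and 45.6 FPKM, with profile 1 the low one. Epcam, an adhesion protein that binds Cldn7, stood at 867, 763 and 800.4 FPKM and was second of the 47 genes by mean and median.

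E-cadherin was by far the leading classical cadherin. Cdh1 stood at 336, 333 and 321 FPKM, a difference of 1.05 times between the highest and the lowest profile. Cdh3, P-cadherin of basal cells, stood at 3.58, 5.10 and 4.90 FPKM, and Cdh2, N-cadherin of mesenchymal and neural cells, at 0.266, 0.243 and 0.429. Of the summed FPKM of these 3 genes, Cdh1 held 98.4% (98.4 to 98.9), Cdh3 1.50% (1.06 to 1.51) and Cdh2 0.0783% (0.0720 to 0.131). Cdh3 and Cdh1 lie in a row on the plus strand of chromosome 8, at 106510891 to 106557297 and 106603351 to 106670246 in GENCODE M21. Across that gap of 46.1 kb, the Cdh1 level was 65.6 times that of Cdh3 (65.2 to 93.7). The 10 basal and myoepithelial markers listed were all above 0 and summed to 521, 665 and 589 FPKM. Of the 9 at 1 FPKM or more, Krt5, Krt14, Krt17 and Trp63 were highest in profile 2, as was Cdh3, while Krt15, Acta2, Myh11, Cnn1 and Oxtr were highest in profile 3. The basal keratin Krt14 stood at 239, 320 and 215 FPKM, and Acta2, smooth muscle actin of myoepithelial cells, at 18.5, 34.3 and 74.0. The markers thus did not move as 1 group, and their part in the Cdh3 level was not tested.

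Catenins, which bind cadherin tails, had the smallest median span of the 11 families. Ctnna1, alpha-catenin, which connects to actin, stood at 179, 187 and 192 FPKM. Ctnnd1, p120-catenin, which keeps cadherins at the membrane, stood at 111, 105 and 112 FPKM, on a gene of whose exonic bases 61.2% are also annotated to Gm28635 on the same strand. Jup, plakoglobin, which serves adherens junctions and desmosomes, stood at 76.1, 75.6 and 75.5 FPKM, a span of 0.01 on the log2(FPKM + 1) scale and the narrowest of the 40 genes. Beta-catenin, Ctnnb1, not itself a member, stood at 225, 248 and 244 FPKM. Jup was at 0.310 of the Ctnnb1 level (0.305 to 0.339).

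Nectins, immunoglobulin-type adhesion proteins, were led by Pvrl2. Pvrl2 (Nectin2) stood at 52.7, 54.3 and 69.8 FPKM, and Pvrl4 (Nectin4) at 34.7, 39.0 and 46.1. Pvrl1 (Nectin1) stood at 14.2, 14.2 and 15.9 FPKM. Mllt4 (Afdn), afadin, which ties nectins to actin, stood at 62.5, 68.9 and 71.3 FPKM. All 4 genes were lowest in profile 1 and highest in profile 3. Among all symbols at 1 FPKM or more, 40.1% were lowest in profile 1 and 36.5% were highest in profile 3. Pvrl3, a nectin outside the member list, stood at 2.83, 2.29 and 2.95 FPKM, lowest in profile 2 and highest in profile 3. With Pvrl3 included, Pvrl2 held 50.5% of summed nectin FPKM (49.5 to 51.8).

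**Figure D2:**
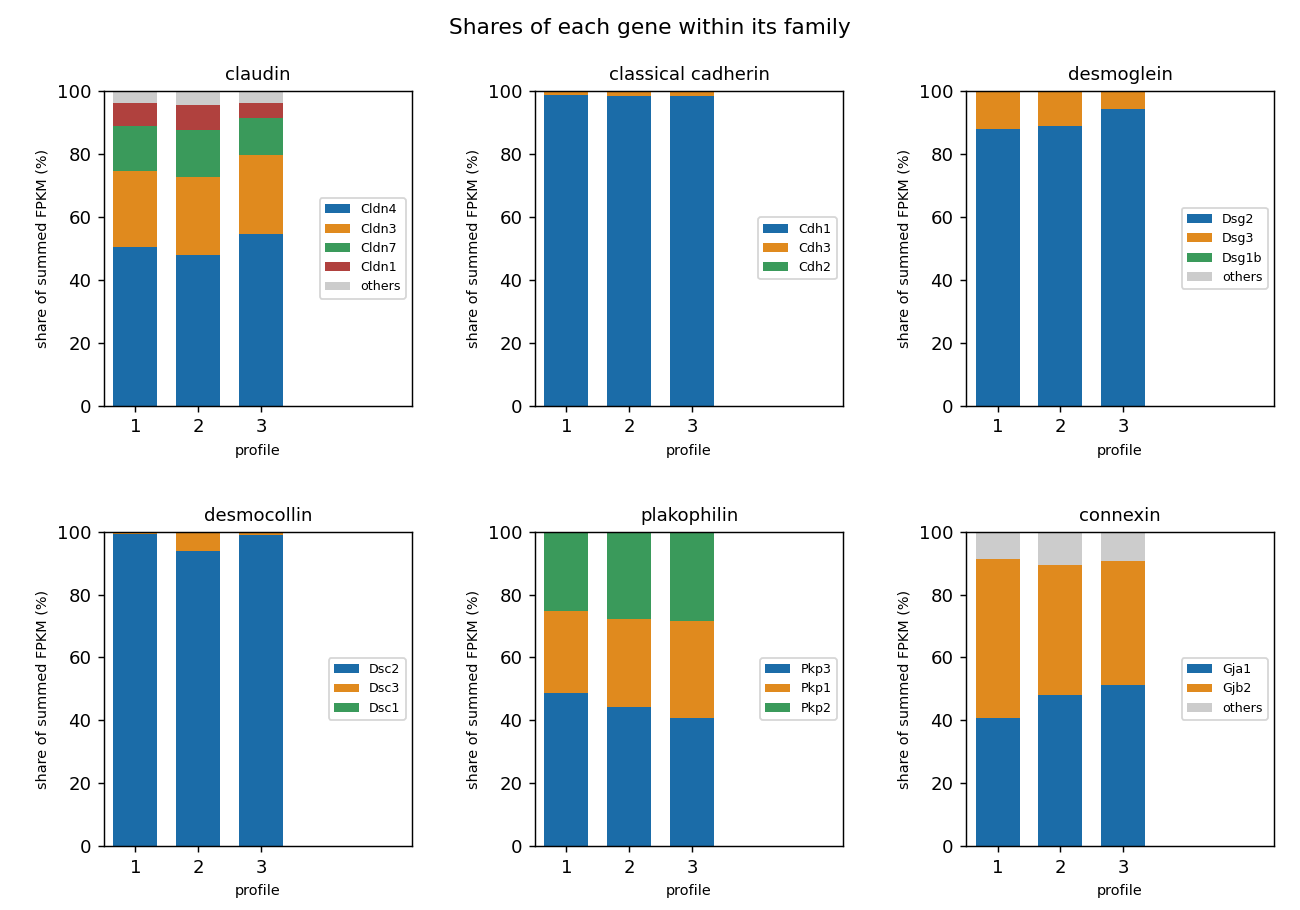
Share of summed FPKM (%) held by each gene within its family, with 1 stacked bar per profile. Cdh1, Dsg2 and Dsc2 each hold at least 87.9% of their family in every profile, the plakophilins are spread over 3 genes, and Gja1 and Gjb2 share most connexin transcript.

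Desmosomal cadherin transcript was mainly that of Dsg2 and Dsc2. Dsg2, the desmoglein of simple epithelia and heart, stood at 44.8, 42.2 and 49.5 FPKM and held 88.9% of summed desmoglein FPKM (87.9 to 94.1). Dsg3, the desmoglein of basal layers in stratified epithelium, stood at 6.16, 5.11 and 3.05 FPKM, so profile 3 was the low one. Dsg1a, a desmoglein of upper epidermal layers, was listed at 0, 0.0210 and 0 FPKM. It has close copies in Dsg1b and Dsg1c, and the counting of shared reads is not stated in the sources used. Dsc2, the widespread desmocollin, stood at 26.4, 21.4 and 18.3 FPKM and held 98.9% of summed desmocollin FPKM (93.8 to 99.1). Dsc1, of upper epidermis, was listed at 0, 0.0159 and 0 FPKM. Dsc3, of basal keratinocytes, stood at 0.233, 1.39 and 0.211 FPKM, so it rests on profile 2 alone. Of the 9 basal and myoepithelial markers at 1 FPKM or more, 4 were highest in profile 2 and 5 in profile 3, and their part in the Dsc3 value was not tested. Dsc3, Dsc2 and Dsc1 lie side by side on chromosome 18, and so do Dsg3 and Dsg2. Between Dsc2 and its neighbours the gaps are 28.3 and 24.6 kb, and between Dsg3 and Dsg2 10.6 kb.

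Plakophilins, armadillo proteins of the desmosomal plaque, were spread across all 3 genes, unlike the cadherins they bind. Pkp3, found in most epithelia, stood at 58.3, 50.7 and 41.7 FPKM and held 44.2% of the 3 genes' summed FPKM (40.9 to 48.9). Pkp1, known from stratified epithelium, stood at 30.9, 32.4 and 31.5 FPKM and held 28.2% (25.9 to 30.9). Pkp2, known from simple epithelium and heart, stood at 30.2, 31.7 and 28.9 FPKM and held 27.6% (25.3 to 28.3). The ranges of Pkp1 and Pkp2 overlapped, and Pkp3 was above both in each profile. Pkp1 was thus at 30 FPKM or more in profiles where Dsg3 stayed under 7, though both belong to stratified epithelium.

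The rest of the desmosome plaque and its partners were all above 1 FPKM. Perp, a membrane protein of desmosomes and a p53 and p63 target, led at 143, 119 and 92.6 FPKM. Dsp, desmoplakin, which anchors keratin filaments, stood at 24.6, 32.5 and 37.0 FPKM, in the opposite order. A predicted gene, Gm10129, overlaps 5.17% of Dsp exonic bases on the opposite strand, and this library kit is not described as keeping strand. Ppl, periplakin, had 25.1 FPKM (24.8 to 26.9) and Evpl, envoplakin, its partner in the cornified envelope, 9.31 (7.96 to 9.57). Perp, Pkp3, Dsc2, Dsg3 and Ppl were all highest in profile 1 and lowest in profile 3, while Dsp and Dsg2 were highest in profile 3. Jup, Cldn1, Cldn8, Marveld3 and Cdh1 were also highest in profile 1 and lowest in profile 3. Of all symbols at 1 FPKM or more, 34.8% were highest in profile 1 and 31.5% were lowest in profile 3, and the share with both was not computed.

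Gap junction transcript came mainly from 2 connexins. Gja1, connexin 43, which in the mammary gland is best known from myoepithelial cells, stood at 216, 232 and 276 FPKM. Gjb2, connexin 26, of luminal cells, stood at 270, 198 and 212 FPKM. Among the 20 connexin symbols Gja1 held 48.2% of summed FPKM (40.7 to 51.4) and Gjb2 41.1% (39.4 to 50.8). Gjb2 was the higher in profile 1 and Gja1 in profiles 2 and 3, so the order of the pair differed between profiles. Gjb6, connexin 30, stood at 1.73, 1.39 and 1.42 FPKM, and Gjb1, connexin 32, at 0.379, 1.36 and 0.672. Both are known from mouse mammary gland in lactation. Gjb2 and Gjb6 are neighbours 18.6 kb apart on the minus strand of chromosome 14, and Gjb2 was 149 times as high (142 to 156). Gja1 was highest in profile 3, like 5 of the 9 basal and myoepithelial markers at 1 FPKM or more, while the other 4 were highest in profile 2. The part of these markers in the Gja1 level was not tested.

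Junction genes outside the 47 add context. Of 83 further junction symbols listed, 82 were measured, 36 had a mean of 1 FPKM or more and 18 were listed at 0 in all profiles. Among the other claudins only Cldn25 and Cldn5 reached 1 FPKM. Cldn25 stood at 38.6 FPKM (37.4 to 48.3), and RefSeq names this locus Cldnd1, for a claudin-domain protein. Cldn5, the claudin of blood vessels, stood at 4.72, 1.81 and 1.07 FPKM, and Cldn9 at 0.273 (0.169 to 0.350). Of 21 tight junction and polarity genes, 18 were at 1 FPKM or more. Among them were Lsr, which recruits tricellulin, at 110 (97.6 to 114), and the polarity kinase Prkci at 88.5 (88.2 to 125). Of 23 adherens genes 11 were at 1 FPKM or more, led by Ctnnb1, by Vcl, vinculin, at 93.6 (88.5 to 101), and by Pvr, a nectin-like adhesion receptor, at 78.3 (71.2 to 81.5). Of 5 further desmosome genes 2 reached 1 FPKM, Pnn, pinin, a protein of nuclei and desmosomes, with 46.3 (40.1 to 55.5) and Kazn with 15.02 (15.02 to 16.3), and Dsg1b was listed at 0, 0.160 and 0. Of 19 further gap junction genes 3 reached 1 FPKM, among them the pannexin Panx1 with 6.04 (4.81 to 6.51).

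No junction gene at 1 FPKM or more had a wide span between profiles, but their median span was above that of all such symbols. Among the 40 genes with a mean of at least 1 FPKM, none reached a span of 1 on the log2(FPKM + 1) scale, against 3.65% of all such symbols, a share that is itself close to none in a list of 40. With a pseudocount of 0.1 in place of 1, Cldn6 and Cldn10 did. The median span was 0.33 for the 40 genes and 0.27 for the 10770 symbols. These sets differ in level, with medians of 38.5 and 12.4 FPKM, and the added 1 narrows the spans of low genes. Spans at matched levels were not computed. The widest spans were those of Cldn10 (0.93), Cldn1 (0.90), Cldn6 (0.86), Dsg3 (0.82) and Cldn4 (0.72). By family, the median span was 0.61 over 9 claudins and 0.09 over the 3 catenins. Dsc3, with a mean of 0.611 FPKM and so outside this count, spanned 0.98.

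**Figure D3:**
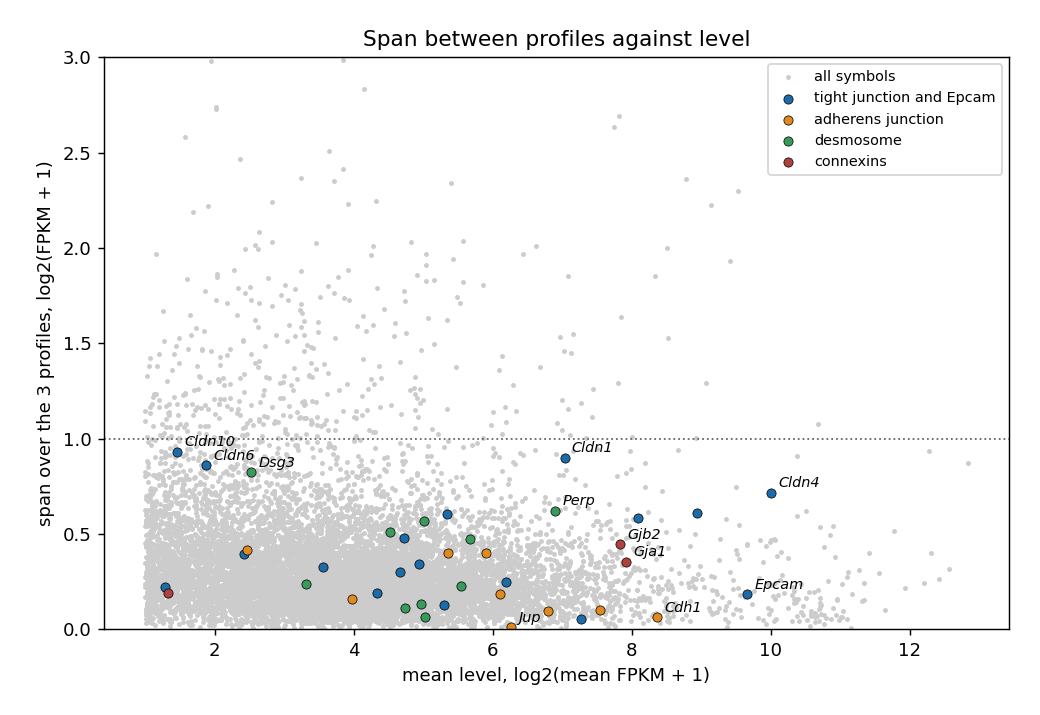
Span over the 3 profiles on log2(FPKM + 1) against mean level on log2(mean FPKM + 1), for symbols with a mean of 1 FPKM or more; grey points are all symbols and coloured points the 40 junction genes by junction type. The dotted line marks a span of 1, above which no junction gene lies, and 25 symbols above the upper edge of 3 are not drawn.

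The profile in which a gene was highest differed between groups of junction genes. Of the 40 genes, 21 were highest in profile 1, against 34.8% of all symbols at 1 FPKM or more, 5 were highest in profile 2, against 28.7%, and 14 were highest in profile 3, against 36.5%. Lowest in profiles 1, 2 and 3 were 12, 15 and 13 genes, against 40.1%, 28.3% and 31.5% of all symbols. Among the 13 tight junction membrane genes at 1 FPKM or more, 11 were highest in profile 1 and 8 were lowest in profile 2. Some of these leads were narrow, as for Cldn23 at 4.822 FPKM in profile 1 and 4.821 in profile 3. Of the 18 further tight junction and polarity genes at 1 FPKM or more, 6, 5 and 7 were highest in profiles 1, 2 and 3. Among the 9 claudins, 7 were highest in profile 1. The tight junction as a whole did not go 1 way, since of its 4 scaffold genes none was highest in profile 1 and 3 were highest in profile 3. Among 9 adherens junction genes, 6 were lowest in profile 1 and 6 highest in profile 3. Of the 11 further adherens genes at 1 FPKM or more, 0, 7 and 4 were highest in profiles 1, 2 and 3. Desmosome genes were mixed, since 5 of 10 were highest in profile 1, 3 in profile 2 and 2 in profile 3. Of the 3 connexins, 2 peaked in profile 1 and 1 in profile 3. Summed claudin FPKM of the members was 2368, 1510 and 1972, while the summed FPKM of the 3 catenins was 366, 368 and 380. With 1 value per profile there is no spread within a profile, so these directions have no error.

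**Figure D4:**
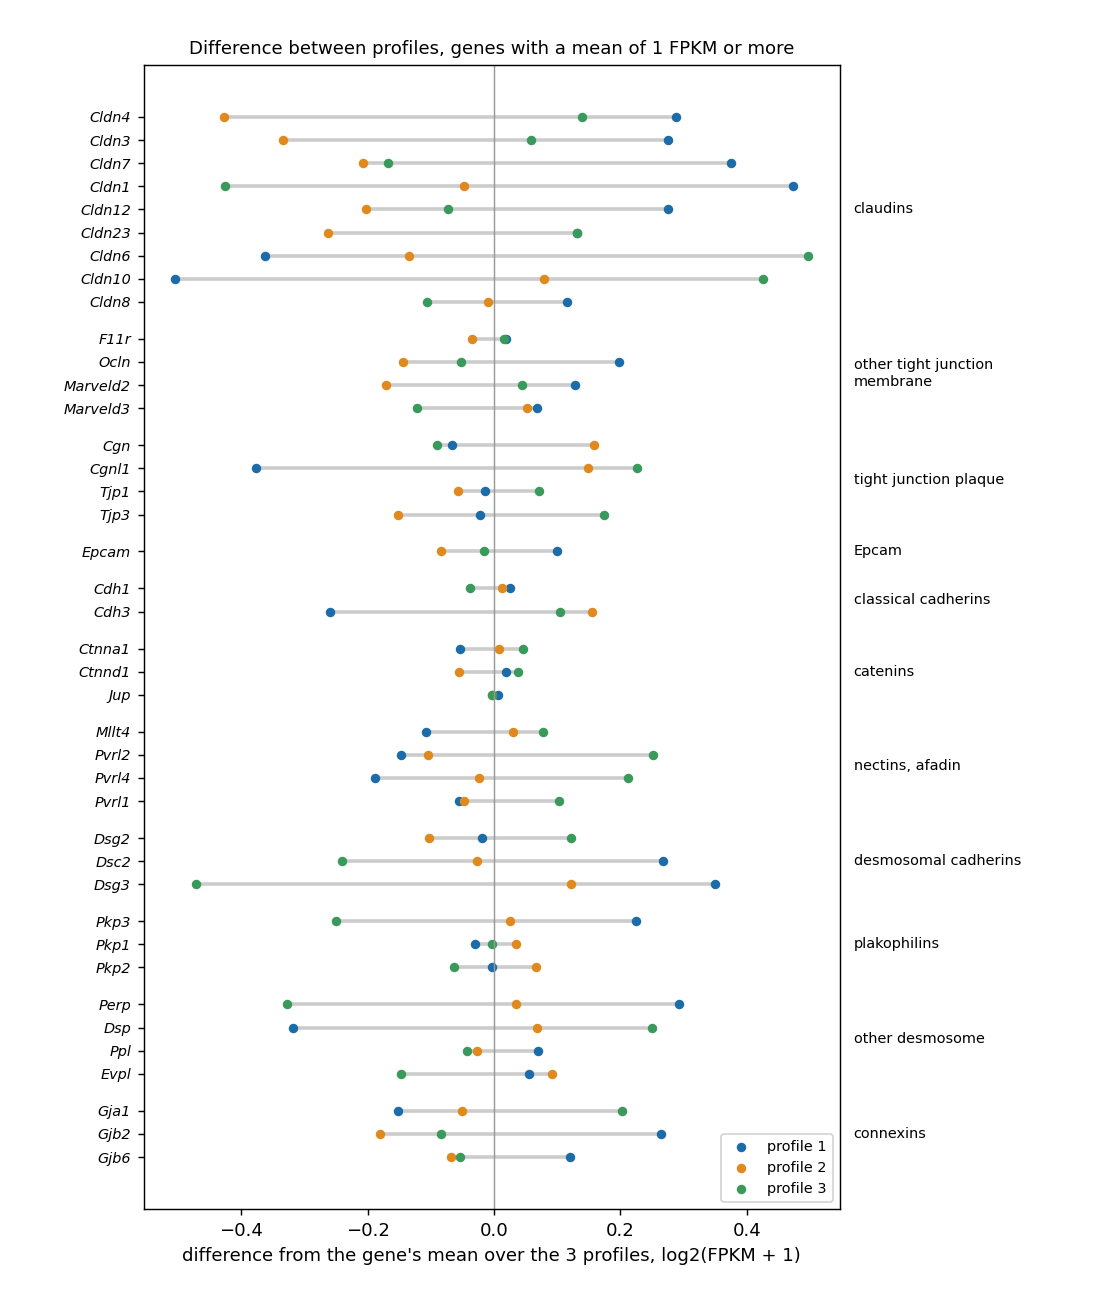
Difference of each profile from the gene's mean over the 3 profiles, on log2(FPKM + 1), for the 40 junction genes at a mean of at least 1 FPKM, grouped by family. Abundant claudins have profile 1 at the right end, all 4 nectin and afadin genes have profile 3 there, and the catenins lie close to 0.

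Markers of other cells moved between the same profiles. In bulk RNA, fewer cells of a type and less RNA per cell cannot be told apart. The mean of all 10 fibroblast markers was at least 1 FPKM, and 9 were lowest in profile 1. Their summed level was 130, 257 and 360 FPKM, and none was at 0. Of the 9 basal and myoepithelial markers at 1 FPKM or more, 6 were lowest in profile 1. Endothelial markers, 7 of 9 at 1 FPKM or more and those 7 lowest in profile 3, summed to 39.9, 40.3 and 20.2 FPKM. Beside these, some endothelial junction genes were also lowest in profile 3, among them Cldn5, as given above. Cdh5, VE-cadherin, stood at 7.50, 8.43 and 3.72 FPKM, and Esam at 7.22, 7.98 and 3.01. Not every such gene went this way. The endothelial marker Vwf and the connexin Gja5, both under 1 FPKM, and the junctional adhesion molecule Jam2 were highest in profile 3. Of 7 myeloid markers 5 stood alone on a row, while Cd68 and Aif1 were only on rows naming several genes and were left out. Of those 5, 2 were at 1 FPKM or more, and the 5 summed to 3.23, 2.81 and 5.01 FPKM. The 8 salivary markers summed to 41.0, 41.7 and 1032 FPKM, with Cst10 and Chia at 0 in profiles 1 and 2. Most of the sum in profiles 1 and 2 was Aqp5, which stood at 39.6, 39.7 and 42.9 FPKM. Among the members, Cldn6, Cldn10, Cgnl1, Ctnna1, Dsp, Gja1 and all 4 nectin and afadin genes were lowest in profile 1 and highest in profile 3. The summed fibroblast markers and the summed salivary markers were lowest and highest in the same profiles. The summed basal and myoepithelial markers were lowest in profile 1 but highest in profile 2. Of all symbols at 1 FPKM or more, 40.1% were lowest in profile 1 and 36.5% were highest in profile 3. The share of symbols with both was not computed. The part of the other cell types in any junction gene was not tested.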

How the data were processed

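PolyA RNA of enriched tumor epithelial cells was sequenced with paired ends, per the labels' protocols. The submitters' processing notes name TopHat2 2.0.9, Cufflinks 2.1.1, Cuffdiff and mm10; the sources used do not state roles, annotation or filters. The authors deposited FPKM per gene in 6 sample columns, all matched by name (0 left over), and a summary column.

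Here same-numbered columns were found equal in all rows, so the planned genotype fit was not run and control columns stand for 3 profiles. The 1366 rows without a symbol and the 514 naming several genes were left out of gene results; the row with the highest mean was used per symbol. Spans are on log2(FPKM + 1), which understates differences of low genes. Starts are as deposited plus 1. Gene models are GENCODE M21, promoters RefSeq GRCm38.p6, both the build of mm10. Functions were tested on simulated data. Python 3.11.15, pandas 2.3.3 and numpy 2.4.6 were used. The number of profiles limits precision.

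Members, gene lists and motifs were chosen with earlier results of these data known. Genes described with 3 values were, by rule, each family's leading gene, those spanning 1 or more, and all cadherins, desmosomal cadherins, plakophilins and member connexins, with the top 3 of each further list; a few of these genes are left unreported, and other members and markers were added to account for every member.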

Additional observations from a re-analysis of the deposited data

Results flagged for a closer look

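The authors' deposited summary column often lay outside the range of the 3 profiles, for junction genes and for other genes at a like rate. It was above every profile for 8 of the 40 junction genes at 1 FPKM or more (20.0%), against 15.6% of all such symbols, and for 10 of all 47. A mean of the profiles alone cannot exceed the highest of them. For the claudins, it was 10.98 FPKM for Cldn6 against at most 4.04 in any profile, 7.85 for Cldn10 against 2.57, 2.097 for Cldn8 against 1.64, 0.356 for Cldn15 against 0.294, and 4.89 for Cldn23 against 4.82. For the cadherins it was 8.85 for Cdh3 against 5.10 and 0.875 for Cdh2 against 0.429. For the plaque proteins it was 82.2 for Jup against 76.1, 42.1 for Dsp against 37.0, and 34.6 for Pkp1 against 32.4. The sources used do not state which values entered the summary.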

How the results depend on the processing

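No paired analysis was possible because the genotypes hold equal values under the same number in every row, so each paired difference is 0. Only some shares and counts were recomputed under other processing. These were shares of leading genes in some families and the count of junction genes at 1 FPKM or more. Counts of junction genes lowest in profile 1, and of claudins and tight junction membrane genes highest in profile 1, were included. So was the count of nectin and afadin genes by highest profile. These moved by less than 1 SD of the profiles, or by less than 1.5 times, where each could be computed. Much of this was fixed by construction. A scaling factor per profile cancels in a share, and each junction gene had 1 row, so summing rows changed none of their values. Leaving out 1 of 3 profiles cannot move a median share by more than 1 SD. A gene highest in a profile also stays highest when another profile is left out. Those settings thus could not show that these results are robust. The settings were median-ratio scaling, quantile normalization, summed rows, other minimum levels and leaving out a replicate number. Other family shares and other counts by highest or lowest profile were not recomputed. The alternatives for counts by highest profile and for levels of single genes, and leaving out Cldn25, Cldn26 and Cldn27, were chosen after seeing the data. The median span of 0.33 was 0.31 under quantile normalization, 0.30 with a minimum of 5 FPKM and also 0.30 without a minimum, and ranged from 0.17 to 0.20 when each replicate number was left out, where fewer profiles narrow a span by construction. With a pseudocount of 0.1, 2 genes spanned 1 or more, Cldn6 (1.14) and Cldn10 (1.46), because a smaller pseudocount compresses low levels less. Single levels moved by more than 1 SD for Jup under both scalings (75.2 and 76.1 FPKM) and for F11r under quantile normalization (152 FPKM). Depth is unknown, so low values such as those of Dsg1a and Dsc1 carry no interval.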

Other observations

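For other junction genes the authors' deposited summary lay below every profile, which a mean of the profiles alone cannot do. Among the 40 genes at 1 FPKM or more this held for 9 genes (22.5%), against 17.6% of all such symbols. The genes below were F11r, Cgn, Epcam, Cdh1, Mllt4, Pkp2, Dsc2, Gjb2 and Gjb6. The summary was 687 FPKM for Epcam against at least 763 in the profiles, 295 for Cdh1 against 321, and 160.1 for Gjb2 against 198. For Dsc2 it was 17.9 against 18.3, and for Gjb6 1.09 against 1.39.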
